A study of Homo sapiens with 6 samples.

Results

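PELP1, a scaffold protein and coregulator of nuclear receptors, and 6 genes whose proteins act with it in ribosome assembly were followed in RNA-seq of Hep3B cells. The other 6 genes are WDR18, TEX10, SENP3, LAS1L, MDN1 and NOL9. They were taken by symbol from gene tables that hold 23228 genes, and all 7 were found and passed the filter on weakly expressed genes, as did 14537 genes in all. Hep3B is a human line grown from a hepatocellular carcinoma, long in use as a model of liver cancer. The control group comprised 3 libraries of cells transduced with a non-targeting shRNA lentivirus, and the PELP1-KD group comprised 3 libraries of cells transduced with lentivirus carrying shRNA against PELP1. A short hairpin RNA (shRNA) is cut by the cell into a small RNA that directs the breakdown of the matching mRNA. Both groups thus carry a lentiviral hairpin, and by the labels the knockdown cells were pooled stable clones selected with puromycin. The titles name the first PELP1 shRNA, whereas the protocol names both shRNAs of the study, so the hairpin used is uncertain. Nothing in the labels says that the 3 libraries of a group came from separate cultures, so the p values measure the spread between libraries, which may be technical.

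In human cells PELP1, WDR18 and TEX10 form the Rix1 complex, named after its yeast counterpart, which joins the precursor of the large ribosomal subunit in the nucleolus and nucleoplasm. Around it work the SUMO protease SENP3, the endonuclease LAS1L with its partner kinase NOL9, which cut and trim the internal transcribed spacer between the rRNAs of the large subunit, and the giant ATPase MDN1, which pulls assembly factors off the particle before its export. All of these proteins but MDN1 are also described together as the rixosome, which takes part in RNA decay at silent chromatin. These roles are background and were not measured here. Only RNA levels are given, and protein levels or complex assembly have no values here.

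Reads on genes numbered 26758363 to 34456542 per library. All 9 hepatoma markers examined, among them albumin and α-fetoprotein, were above 1 RPKM (reads per kb of exon and 1e6 reads of the library) in each library. The summed level of these markers was 11000 to 11200 RPKM in the control libraries and 10030 to 10170 RPKM in the PELP1-KD libraries. The single markers went opposite ways within this sum, since albumin (ALB) was at 4840 to 4990 RPKM in control and 3170 to 3250 in PELP1-KD, whereas α-fetoprotein (AFP) was at 2140 to 2250 and 3300 to 3510. Of the 9 markers, 6 were lower and 3 higher in PELP1-KD without overlap of the groups. Of 5 markers of other cell types, PTPRC, CD3E, PECAM1 and VWF were below 1 RPKM in each library, with PTPRC, CD3E and VWF at or near 0. The summed level of the 5 was 22.9 to 25.6 RPKM in control and 32.3 to 34.8 RPKM in PELP1-KD. Nearly all of it was CD68, a lysosomal gene of macrophages, at 22.4 to 25.0 RPKM in control and 31.8 to 34.3 RPKM in PELP1-KD, and the part of other cells in it was not tested. The libraries are called Hep3B here as labelled, and these markers show liver cells but do not settle the identity of the line.

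In hg19, the build of the tables, PELP1 has 17 exons and spans 4574679 to 4607632 of chromosome 17 (minus strand). SENP3 is on the same chromosome, from 7465309 to 7475287 (plus strand, 11 exons). WDR18 lies on chromosome 19 from 984328 to 994569 (plus strand, 10 exons), TEX10 on chromosome 9 from 103064357 to 103115259 (minus strand, 16 exons), and LAS1L on chromosome X from 64732462 to 64754686 (minus strand, 14 exons). MDN1 lies on chromosome 6 from 90353231 to 90529442 (minus strand, 102 exons) and NOL9 on chromosome 1 from 6581407 to 6614658 (minus strand, 12 exons). None of the exons of PELP1, WDR18, TEX10, LAS1L, MDN1 and NOL9 overlapped another gene of the tables on either strand. SENP3 differed, since 2005 of its 2495 exon bases also belong to SENP3-EIF4A1, a read-through gene that joins SENP3 to the translation factor gene EIF4A1.

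The 250 bases before the gene start are shown for WDR18, TEX10 and LAS1L, the genes with the clearest differences between the groups. They were read from GRCh37, the build of hg19, 5′ to 3′ on the strand of the gene, at the gene start of the tables. Capitals mark matches on either strand to CCGGAAG, bound by ETS factors, and to GCATGCGC, bound by NRF1. WDR18 is at chr19:984078-984327, TEX10 at chr9:103115260-103115509 and LAS1L at chrX:64754687-64754936.
WDR18: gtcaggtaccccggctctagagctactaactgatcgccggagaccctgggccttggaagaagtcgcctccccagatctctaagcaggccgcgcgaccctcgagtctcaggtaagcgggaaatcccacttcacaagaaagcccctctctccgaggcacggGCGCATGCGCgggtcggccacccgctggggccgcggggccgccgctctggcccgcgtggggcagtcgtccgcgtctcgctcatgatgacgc
TEX10: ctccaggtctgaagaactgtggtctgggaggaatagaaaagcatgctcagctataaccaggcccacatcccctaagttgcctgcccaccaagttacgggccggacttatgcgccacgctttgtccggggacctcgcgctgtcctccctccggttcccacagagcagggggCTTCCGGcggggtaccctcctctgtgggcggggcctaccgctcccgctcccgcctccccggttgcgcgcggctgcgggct
LAS1L: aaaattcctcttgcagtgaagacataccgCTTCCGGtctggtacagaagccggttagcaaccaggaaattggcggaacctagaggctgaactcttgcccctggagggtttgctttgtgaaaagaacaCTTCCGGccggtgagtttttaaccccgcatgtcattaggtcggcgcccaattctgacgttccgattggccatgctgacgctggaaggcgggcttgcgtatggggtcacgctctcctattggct

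The 6 genes other than PELP1 were described over a window from 250 bases before to 50 bases after the start, where the start is position 1. TEX10 held CACGTG, the E-box bound by MYC with MAX and by other factors, with its first base at position 6, outside the stretch printed. MDN1 held a pair of E-boxes at −226 and −44. WDR18, SENP3, LAS1L and NOL9 held none, and 7.98% of 22912 such windows in the tables held an E-box. The ETS motif was found on the opposite strand in TEX10 (−80), NOL9 (−31) and LAS1L, the last with copies at −221 and −123, against 11.5% of all windows. WDR18 alone of these 6 genes held the NRF1 motif, as overlapping matches on opposite strands at positions −91 and −89, against 3.7% of all windows. WDR18 also had a match to AAGATGGCG, the motif of YY1, at position 24 (1.91% of all windows). SENP3 held none of the motifs. A match is a description of the letters and not evidence of binding. The motifs were chosen after the sequences had been read.

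Per length of exon, WDR18 RNA was the most abundant and MDN1 RNA the least. In the control libraries the levels were 67.5 ± 3.10 RPKM for WDR18, 43.0 ± 0.997 for PELP1, 42.8 ± 0.742 for SENP3, 36.7 ± 0.639 for LAS1L, 8.34 ± 0.392 for TEX10, 3.81 ± 0.0170 for NOL9 and 3.29 ± 0.0728 for MDN1 (SD, n = 3 per group). PELP1 and SENP3 could not be placed in order, since their control ranges of 42.4 to 44.2 and 42.2 to 43.6 RPKM overlapped, and the other neighbours in this order did not overlap. TEX10 thus stood at 0.194 ± 0.0127 of the PELP1 level and WDR18 at 1.57 ± 0.0419 of it (SD, n = 3 per group), although the 3 proteins sit in one complex. Averaged over the 6 libraries, the levels of WDR18, SENP3, PELP1 and LAS1L lay at or above the 85.3rd percentile of the tested genes, TEX10 at the 48.4th, NOL9 at the 35.3rd and MDN1 at the 32.7th. In the PELP1-KD libraries the order from LAS1L to PELP1 was no longer clear. WDR18 was at 53.3 ± 3.70 RPKM, LAS1L at 42.6 ± 0.736, SENP3 at 42.3 ± 2.06 and PELP1 at 40.7 ± 2.06 (SD, n = 3 per group). LAS1L overlapped SENP3, and SENP3 overlapped PELP1.

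**Figure D1:**
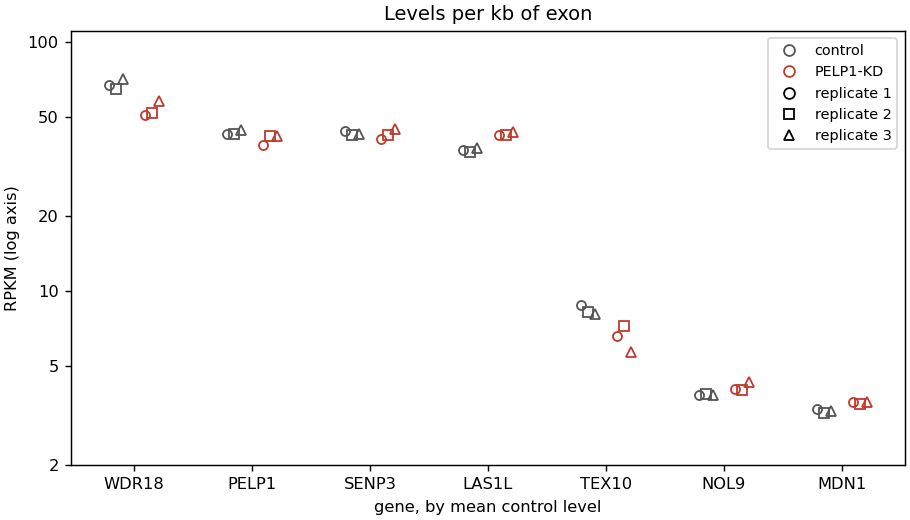
Level of each gene in RPKM, on a log axis, with 1 symbol per library, control in grey and PELP1-KD in red. WDR18 is highest in both groups at 67.5 and 53.3 RPKM, and PELP1, SENP3 and LAS1L lie close together near 40.

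The groups were compared to see how the RNA of PELP1 and its partners differed between PELP1-KD and control libraries. Normalized reads are reads divided by the library's TMM-scaled size. Fold changes and their adjusted p were obtained with edgeR's quasi-likelihood test with Benjamini-Hochberg adjustment over all 14537 tested genes. At an adjusted p below 0.05, 4 of the 7 genes (57.1%) were called, where 53.6% of all tested genes were. WDR18 and TEX10 were lower (26.8% of tested genes were called lower) and LAS1L and MDN1 were higher (26.8% were called higher). None of the 7 also changed 2-fold, against 7.65% of tested genes. The share called among the 7 genes was thus near that of all genes. This fit did not pair libraries by replicate number. When the replicate number was added to the model, 5 of the 7 were called, where 60.7% of all tested genes were.

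PELP1 RNA was close to the control level. The control libraries held 4893, 4914 and 5102 normalized reads of PELP1, and the PELP1-KD libraries held 4421, 4825 and 4840. Each PELP1-KD value lay below each control value, but replicates 2 and 3 of PELP1-KD lay just under the lowest control library, and replicate 1 lay further down. The means were 4970 ± 115 and 4695 ± 238 (SD, n = 3 per group), which is 94.5% of control. The log2 fold change was −0.08 (95% interval −0.17 to 0.004, adjusted p = 0.101 from edgeR). This interval ran from 89.0% to just above 100% of control and so included no change. With the replicate number as a block, which removes differences shared by libraries of the same number, PELP1 was called lower (adjusted p = 0.0106). It was also called without replicate 3 of PELP1-KD (−0.105, adjusted p = 0.018), while without replicate 1 the log2 difference was −0.04 (adjusted p = 0.424). The RNA of the targeted gene thus did not by itself bear out the knockdown that the labels name, and the libraries are called PELP1-KD as labelled. The paper reports less PELP1 protein by Western blot in Hep3B cells with its PELP1 shRNAs, a measure that these RNA values do not hold. In bulk RNA, fewer cells that hold a transcript and less of it per cell cannot be told apart.

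WDR18, the WD-repeat subunit that binds PELP1, fell. It had 3259, 3158 and 3455 normalized reads in control and 2470, 2517 and 2804 in PELP1-KD. All 3 PELP1-KD libraries lay below the control range, with replicate 3 highest in both groups. The mean fell from 3291 ± 151 to 2597 ± 180 (SD, n = 3 per group), or 78.9% of control. On the log2 scale this was −0.34 (SE 0.05, 95% interval −0.44 to −0.24, edgeR adjusted p = 8.78e-06).

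TEX10, the third subunit and the counterpart of yeast Ipi1, had 904, 844 and 827 normalized reads in control and 679, 741 and 584 in PELP1-KD. The groups did not overlap, and the PELP1-KD libraries were spread more widely than those of control, with replicate 3 lowest. TEX10 fell to 77.8% of control, from 858 ± 40.3 to 668 ± 78.9 normalized reads (SD, n = 3 per group). On the log2 scale this was −0.37 (SE 0.07, 95% interval −0.52 to −0.21, edgeR adjusted p = 0.000296). Replicate 3 of PELP1-KD thus held the most PELP1 and WDR18 RNA of its group but the least TEX10 RNA. Without it the TEX10 difference was −0.28 (adjusted p = 0.000338) and that of WDR18 −0.40. Of all tested genes, 28.2% had a larger absolute fold change than TEX10 and 30.4% a larger one than WDR18.

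SENP3, which removes SUMO from PELP1 and from the nucleolar protein NPM1, differed by less than the spread between libraries. It had 3420, 3311 and 3331 normalized reads in control and 3171, 3295 and 3491 in PELP1-KD, and the PELP1-KD values enclosed the control range. The log2 fold change was −0.02 (95% interval −0.10 to 0.07, edgeR adjusted p = 0.784), so the interval ran from 93.1% to 105% of control. Because SENP3 shares exons with SENP3-EIF4A1, the reads of the read-through gene less those of EIF4A1 were also taken, a choice made after the data had been seen. This gave 3204 ± 73.5 normalized reads in control and 3161 ± 173 in PELP1-KD (SD, n = 3 per group; log2 difference −0.02, two-sided exact permutation test p = 0.8). If shared reads count in full for each gene, this difference holds mostly the same reads as SENP3. It is then not a separate estimate and cannot tell SENP3 transcripts from read-through transcripts. EIF4A1 itself, the helicase of translation initiation next to SENP3, went from 34014 ± 440 down to 29388 ± 448 normalized reads (SD, n = 3 per group; log2 fold change −0.21, edgeR adjusted p = 3.41e-06).

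LAS1L, the endonuclease, rose. It had 2859, 2826 and 2925 normalized reads in control and 3291, 3307 and 3398 in PELP1-KD. The groups lay well apart, with SDs of 50.0 and 57.5 reads around means of 2870 and 3332 (n = 3 per group). LAS1L was at 116% of control, or 0.22 on the log2 scale (SE 0.04, 95% interval 0.13 to 0.30, edgeR adjusted p = 0.000109). NOL9, the kinase that works with LAS1L, had 805, 808 and 801 normalized reads in control and 850, 842 and 909 in PELP1-KD. Its PELP1-KD values were all above control, but replicate 3 stood above the others. The log2 fold change of NOL9 was 0.11 (95% interval −0.01 to 0.23), which was not called (edgeR adjusted p = 0.109). MDN1, the ATPase, had 1836, 1757 and 1801 normalized reads in control and 1947, 1916 and 1954 in PELP1-KD. It was at 108% of control, or 0.11 on the log2 scale (SE 0.04, 95% interval 0.02 to 0.20, edgeR adjusted p = 0.039). The call of MDN1 was lost in DESeq2 (adjusted p = 0.0952) and in 5 of the 6 fits on 5 libraries, namely those without control replicate 1, 2 or 3 or without PELP1-KD replicate 1 or 2 (adjusted p from 0.0612 to 0.152). Groups did not overlap for 6 of the 7 genes, all but SENP3, where this held for 58.8% of tested genes.

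**Figure D2:**
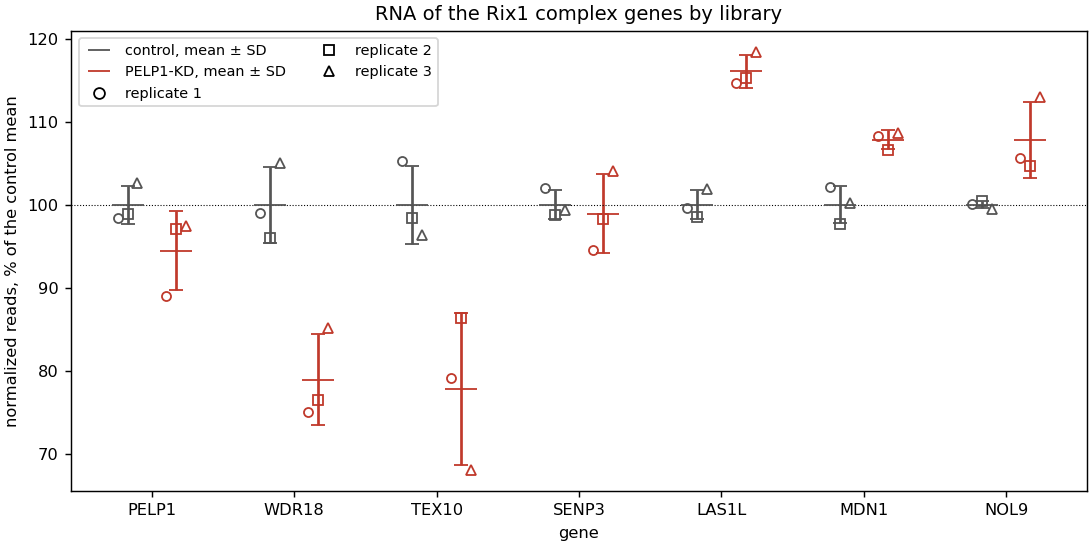
Normalized reads of each gene in each library as a percentage of the gene's control mean, with replicates as symbols and the mean ± SD of each group as bars (n = 3). WDR18 and TEX10 lie near 78% of control in PELP1-KD, LAS1L near 116%, and the SENP3 groups overlap.

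**Figure D3:**
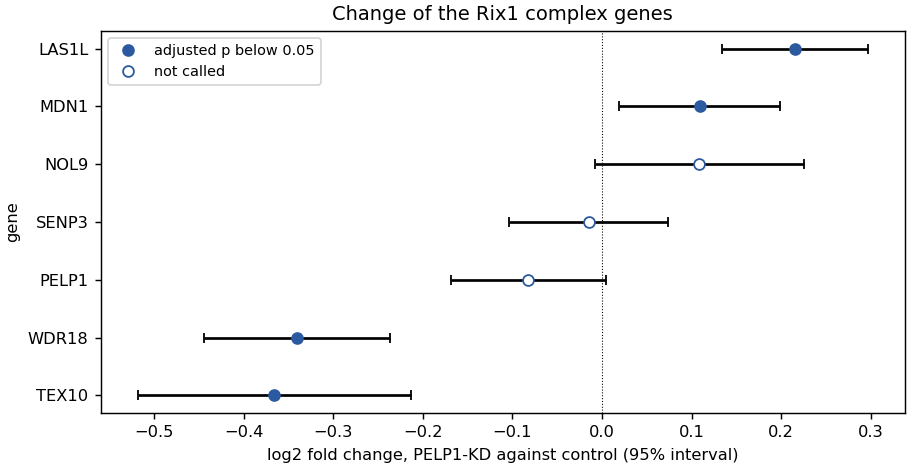
Log2 fold change of PELP1-KD against control with the 95% interval from edgeR, sorted, with filled points for an adjusted p below 0.05. TEX10 (−0.37) and WDR18 (−0.34) are lower, LAS1L (0.22) and MDN1 (0.11) higher, and the intervals of PELP1, SENP3 and NOL9 include 0.

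The balance between genes was then taken within each library, as reads per kb of one gene over those of PELP1, which does not depend on how libraries are scaled. WDR18 stood at 1.58, 1.52 and 1.60 times PELP1 in control and at 1.32, 1.24 and 1.37 times in PELP1-KD. TEX10 stood at 0.207, 0.193 and 0.182 of PELP1 in control and at 0.172, 0.172 and 0.136 in PELP1-KD. Both ratios were lower in every PELP1-KD library, with log2 differences of −0.26 and −0.28. Without PELP1-KD replicate 3 the TEX10 difference was −0.17. LAS1L moved the other way, from 0.863, 0.849 and 0.846 of PELP1 in control to 1.10, 1.01 and 1.04 in PELP1-KD (log2 difference 0.30). The ratios of MDN1 and NOL9 to PELP1 were also higher in each PELP1-KD library, both with a log2 difference of 0.19. For these 5 ratios the groups did not overlap (p = 0.1 in a two-sided exact permutation test, which can go no lower with 3 libraries against 3). The ratio of SENP3 to PELP1 overlapped between groups (log2 difference 0.07, exact permutation p = 0.2). All of these ratios share PELP1 as denominator.

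Ratios without PELP1 were looked at after the values had been seen. LAS1L stood at 0.547, 0.558 and 0.528 of WDR18 in control and at 0.830, 0.819 and 0.755 in PELP1-KD, a log2 difference of 0.56 and the widest of the ratios computed. LAS1L over NOL9, which act as one enzyme complex, was 9.58, 9.43 and 9.85 in control and 10.5, 10.6 and 10.1 in PELP1-KD (log2 difference 0.11). Both comparisons were without overlap (exact permutation p = 0.1). TEX10 over WDR18 was 0.131, 0.127 and 0.113 in control and 0.130, 0.140 and 0.0987 in PELP1-KD, with overlapping groups (log2 difference −0.02, exact permutation p = 0.9).

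**Figure D4:**
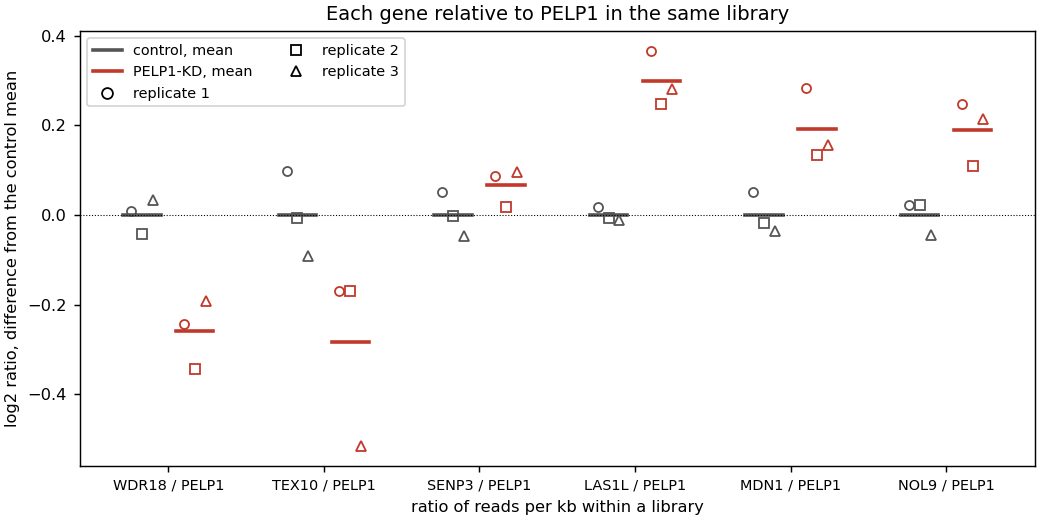
Log2 ratio of each gene to PELP1 within a library, as the difference from the control mean, with replicates as symbols and group means as lines. WDR18 (−0.26) and TEX10 (−0.28) are lower relative to PELP1 in PELP1-KD, and LAS1L (0.30), MDN1 (0.19) and NOL9 (0.19) are higher.

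The genes nearest in profile were found by the root mean square distance between log2 normalized reads, each centred on its own mean over the 6 libraries, among 11768 other genes whose mean reached 100 normalized reads. PPP1R3F, NPAS2 and YIF1A were nearest to PELP1, at distances of 0.0138, 0.0142 and 0.0147. Of the other 6 genes SENP3 was nearest to PELP1 (0.0505), at rank 731, and TEX10 was farthest (0.191), at rank 8740. The closest pair among the 7 genes was MDN1 with NOL9, at 0.0359, where NOL9 ranked 312 among the genes nearest to MDN1.

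Genes beside the members did not all move with them. Their counts stand beside 53.6% of all tested genes called, 26.8% lower and 26.8% higher. Of the 3 nearest tested genes on each side, those of TEX10 had log2 fold changes from −0.15 to 0.09 and none was called by edgeR, including INVS, whose annotated end lies 931 bases from TEX10. Around WDR18, 3 of 6 were called lower and none higher, among them KISS1R (−1.26). Around LAS1L, which rose, 4 of 6 were called lower and 2 higher. MSN, the cytoskeletal linker gene 132825 bases away, had a log2 fold change of −3.09. PELP1 had 2 lower and 2 higher neighbours, MDN1 likewise, SENP3 had 3 lower and none higher, and NOL9 had 3 lower and 1 higher. The lower neighbours of SENP3 included TNFSF13 (−2.35) and the read-through gene TNFSF12-TNFSF13 (−1.71), both 384 bases away. If shared reads count in full for each gene, these are not separate neighbours. The same holds for C9orf30-TMEFF1 with C9orf30 and TMEFF1 beside TEX10.

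The other genes of ribosome assembly and of PELP1's known partners are given by lists. Whether listed genes that changed, within a list or between lists, lie together on a chromosome was not tested. Of 51 factors that assemble the large subunit, 7 were called lower and 10 higher by edgeR, 33.3% in all against 53.6% of tested genes, with a median log2 fold change of 0.006 against 0.004 for all tested genes. GNL3, a nucleolar GTPase also known as nucleostemin, fell to 75.5% of control (log2 fold change −0.40, adjusted p = 1.69e-07), and NMD3, the export adaptor of the large subunit, fell to 76.2% (−0.39, adjusted p = 4.47e-06). EIF6, which keeps the subunits apart until maturation ends, rose from 9709 ± 141 to 11732 ± 476 normalized reads (SD, n = 3 per group; 0.27, adjusted p = 1.83e-06), and the helicase gene DDX27 rose by 0.21 on the log2 scale. With the replicate block 30 of the 51 were called, 14 lower and 16 higher, where the block gave 60.7% of all tested genes.

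Next, 10 genes that meet MDN1 or the 5S rRNA particle on the precursor were examined, among them NLE1 and WDR12, on which MDN1 acts, BOP1 and PES1, which bind WDR12, and RPL5 and RPL11, which bring the 5S rRNA. edgeR called 0 of the 10 and DESeq2 also called 0, and 1 had an unadjusted p below 0.05. Their log2 fold changes ran from −0.46 for BOP1 (adjusted p = 0.24) to 0.07 for GNL2, with a median of 0.03. With the replicate block 3 of them were called, and 2 when PELP1-KD replicate 3 was left out. Of 18 genes for processing of the second internal spacer and for the RNA exosome, 2 were called lower and 5 higher (38.9%). EXOSC9, a core subunit, fell to 83.4% of control (log2 fold change −0.26, edgeR adjusted p = 0.00033), and ISG20L2, an exonuclease gene, to 91.6%. ERI1, an exonuclease of rRNA and histone mRNA ends, rose from 1819 ± 112 to 2846 ± 128 normalized reads (SD, n = 3 per group; 0.65, adjusted p = 1.28e-09), and DIS3, a catalytic exosome subunit, rose by 0.29 on the log2 scale.

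Genes for small subunit assembly and for rRNA transcription were called at shares near that of all tested genes. Of 53 processome genes, 14 were called lower and 14 higher (52.8%, median −0.02). UTP3 (log2 fold change −0.45) and BYSL (−0.49) fell to 73.4% and 71.0% of control, and DDX52 and PDCD11 rose to 115% and 113%. Of 17 genes of RNA polymerase I and its factors, 5 were called lower and 5 higher (58.8%, median 0.009). This count was 6 without control replicate 1, 4 without control replicate 2 and 6 without PELP1-KD replicate 2. POLR1D, a subunit shared by polymerases I and III, fell by 0.79 on the log2 scale, from a mean of 1743 ± 73.4 to one of 1005 ± 53.5 normalized reads (SD, n = 3 per group, edgeR adjusted p = 1.58e-10). TAF1C, of the promoter selectivity factor, rose to 141% of control (0.50, adjusted p = 1.21e-08), and POLR1E rose by 0.19 on the log2 scale. ZNRD1 was called lower at −1.45 but had few reads, at 32.9 ± 19.9 and 12.4 ± 3.93 normalized reads (SD, n = 3 per group), and its groups overlapped, so its value is uncertain.

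Of 53 protein genes of the large subunit itself, RPL5 and RPL11 included again, 18 were called lower and 7 higher (47.2%, median −0.02). RPL21 fell to 54.9% of control (log2 fold change −0.86, edgeR adjusted p = 2.65e-13) and RPL27A to 75.8%, while RPL36A and RPL10 rose by 0.12 and 0.10 on the log2 scale. Genes of this family have many processed copies in the genome, and reads that match several places were divided among them, so these values are less certain.

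The SUMO pathway, in which SENP3 acts, had more genes lower than higher. Of 22 genes, 13 were called lower and 2 higher (68.2%), with a median log2 fold change of −0.12. Of all tested genes 53.6% were called, 26.8% lower and 26.8% higher, with a median of 0.004. The list counts NPM1, from which SENP3 removes SUMO, among the lower genes. USPL1, another SUMO protease gene, went from 656 ± 37.0 down to 355 ± 34.8 normalized reads (SD, n = 3 per group; −0.89, edgeR adjusted p = 1.07e-08). The SUMO ligase genes RANBP2 and PIAS2 rose by 0.14 and 0.20 on the log2 scale.

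PELP1's known partners among chromatin factors, kinases and nuclear receptors went both ways. ESR1, a receptor that PELP1 coactivates in other tissues, had at most 1 read in a library and was not tested. Of the 18 tested, 6 were called lower and 4 higher (55.6%, median −0.02). PRMT6, an arginine methyltransferase that binds PELP1, went from 296 ± 13.7 down to 37.3 ± 6.26 normalized reads (SD, n = 3 per group), or 12.6% of control (log2 fold change −2.99, edgeR adjusted p = 2.62e-13). RXRA, the retinoid X receptor gene, fell to 76.8% of control (−0.38, adjusted p = 1.13e-07). The kinase gene SRC rose to 127% (0.34, adjusted p = 7.88e-06) and STAT3 to 113% (0.18, adjusted p = 0.000127). Of 19 genes of HP1 and of the Polycomb complex PRC1, which is known to bring the rixosome to chromatin, 7 were called lower and 3 higher (52.6%, median −0.075). PHC2 and PCGF3 fell to 82.6% and 86.6% of control, and CBX6 and PHC1 rose to 133% and 131%.

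**Figure D5:**
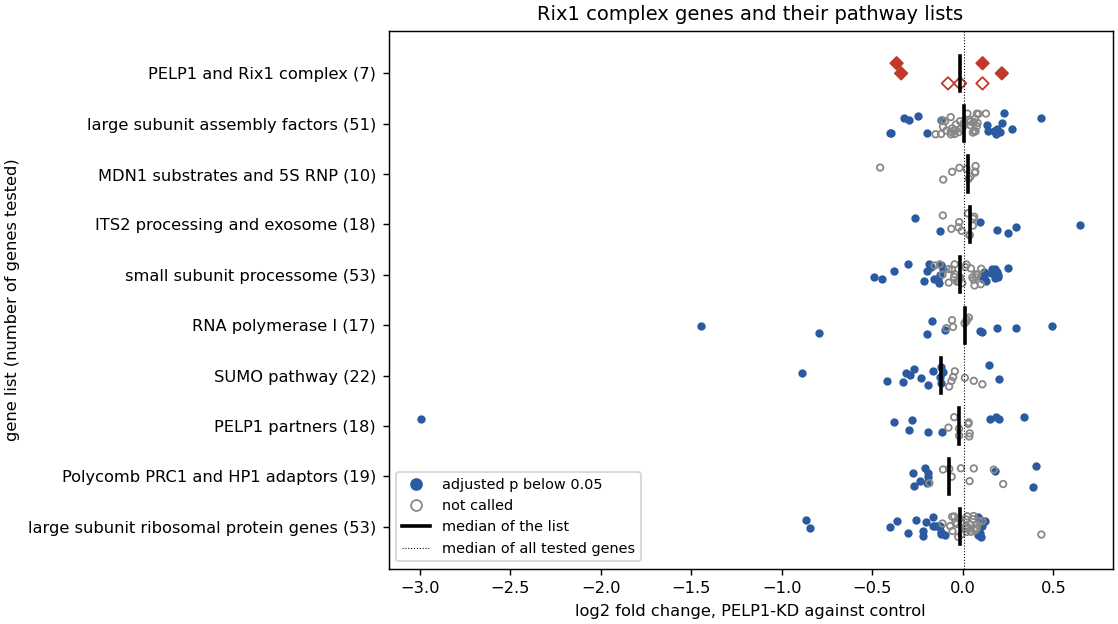
Log2 fold change of each tested gene by list, with filled points for an adjusted p below 0.05, a bar at each list's median and a dotted line at the median of all tested genes, and the 7 genes as red diamonds in the top row. Points are offset vertically for legibility only. Medians lie between −0.12 (SUMO pathway) and 0.04 (spacer processing and exosome), and PRMT6 is lowest at −2.99.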

How the data were processed

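RNA was sequenced in 6 Hep3B libraries, grouped by their titles as control or PELP1-KD, with replicate numbers 1 to 3 in each. The sources differ on the extraction reagent, the library kit (mRNA selection or rRNA removal) and whether reads were paired. For mapping to hg19 the study's methods name TopHat2, with HTSeq for counting, whereas the submitters' processing notes name HISAT2 and the file headers featureCounts v1.5.0-p1, set to reverse strand and to keep alignments of mapping quality 2 or more. The authors deposited estimated counts per gene, not normalized. Reads with several matches were counted as fractions, so 10.6% to 13.3% of values were not whole. Reads on several genes seem to be counted in full for each, since SNRPN and SNURF, which share transcripts, had whole numbers in each library, equal in 5 of 6 and 3035 and 3036 in the other.

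Estimated counts were rounded for the tests, and normalized reads and RPKM used them unrounded. The fit was edgeR 4.0.16 in R 4.3.3 (filterByExpr, TMM, robust glmQLFit, glmQLFTest, Benjamini-Hochberg adjustment over 14537 genes). Intervals of 95% use its moderated degrees of freedom (median 19.1). The median standard error of a log2 fold change was 0.0632. RPKM uses TMM-scaled library sizes. The fit was tested on simulated data with known changes. Ratios were compared by exact permutation.

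Alternatives were DESeq2 1.42.0, edgeR scaled by DESeq2 size factors or by upper quartiles, no filter, at least 10 reads in every library, an adjusted p below 0.01, the replicate block, and each library left out. Over 6397 genes with a log2 CPM above 5, same-numbered libraries of both groups deviated together, with correlations of 0.333, 0.242 and 0.665 across genes. The replicate block treats the numbers as pairs. The main fit does not, so its p values, intervals and counts ignore any pairing. Replicates 1 and 2 were not told apart by these correlations (control 2 with PELP1-KD 1 had 0.419, and control 1 with PELP1-KD 2 had 0.241). Replicates of one group differed by a chi-square per degree of freedom of 1.92 to 6.76, above sampling noise.

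The 7 genes and the lists were chosen with earlier results of these data known. The lists are from general knowledge, and the 53 protein genes of the large subunit were taken by symbol. Named are the 7 genes, the 2 genes of each list with the smallest p in each direction, overlapping genes, neighbours a result turns on, and the 3 genes nearest to PELP1 in profile. NLE1, WDR12, BOP1, PES1, GNL2, RPL5 and RPL11 were named besides, after their values had been seen. The hairpin sequences were not used here, and a few items that these rules name are not reported here.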

Additional observations from a re-analysis of the deposited data

How the results depend on the processing

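WDR18, TEX10 and LAS1L kept their direction and their call in each of the 12 alternatives tried, and the values of those that left out a library were −0.400 to −0.301, −0.443 to −0.276 and 0.202 to 0.233. PELP1 was lower in each fit, from −0.105 to −0.040 with a library left out, and crossed the threshold with the replicate block (−0.0831, adjusted p = 0.0106) and without PELP1-KD replicate 3. MDN1 was at 0.105 in DESeq2, where its call was lost, and at 0.0923 to 0.126 with a library left out, where 5 of 6 calls were lost with 5 libraries fitted. SENP3, never called, changed sign when a library was left out (−0.0531 to 0.0176). NOL9 was never called, with an adjusted p from 0.105 to 0.324 with a library left out. The replicate block called 30 of the large subunit assembly factors and 3 of the genes around MDN1 and the 5S particle, and changed no other call of the 7 genes and no other list's count by over 1.5 times. With a library left out, the latter list had 0 to 2 calls and that of RNA polymerase I had 4 to 8. The cause of these shifts was not tested. With 3 libraries a group, permutation cannot give a p below 0.1, and intervals cover the spread between these libraries only.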
